A study of Mus musculus with 140 samples.

Results

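The corepressor and histone deacetylase genes examined here were 9 mouse genes: Ncor1, Tbl1xr1, Hdac3, Sin3a, Hdac1, Hdac2, Rcor1, Rest and Chd4. Silencer intervals were taken as theirs by position alone: an interval had to overlap, by at least 1 bp, the gene body extended by 10 kb on each side (the territory) in mm10 with GENCODE M21 gene models. No measured value entered that rule, although the genes themselves were chosen with earlier results of these data known. The 9 territories span 724 kb and hold 63 of the 115165 mESC intervals and 40 of the 89596 MEF intervals, or 103 of 204761 in all. Each symbol matched 1 of the 21938 protein-coding genes. An interval in a territory is a piece of DNA that was scored on a plasmid, so it is not thereby an element that acts on the gene, and the lists hold no expression value for any gene.

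The study searched the mouse genome for silencers, stretches of DNA that reduce transcription. Its assay, Ss-STARR-seq, clones genomic fragments, here of 300 to 400 bp, into a reporter plasmid, transfects the pool, and sequences both the RNA made from it and the pool itself. The labels describe 140 libraries: 56 of reporter RNA from mouse embryonic stem cells (mESCs), 64 of reporter RNA from mouse embryonic fibroblasts (MEFs), and 20 of the input plasmid pool. mESCs are pluripotent and were kept with LIF and inhibitors of GSK3 and MEK (CHIR99021 and PD0325901). MEFs are differentiated connective tissue cells and were grown in DMEM with serum, and the labels name no genotype, strain, age or drug that sets either cell type apart beyond its medium. The 2 tables analysed give 1 interval list for each cell type, with a chromosome, a start, an end and the authors' fold for each interval. That fold is a linear ratio for which the sources used here give neither numerator nor denominator. It is used below to describe and rank intervals within a list. Where both lists have an interval at a place, the folds are given side by side and not compared, since the scaling and depth of the lists are unknown. With 1 list for each cell type no difference had a replicate check, and the intervals quoted at 95% cover counting error only.

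Corepressors carry no DNA-binding domain of their own in most cases. A repressor bound to DNA recruits them, and they bring enzymes that remove acetyl groups from histone tails, which packs chromatin more tightly and lowers transcription. NCOR1 is the scaffold of the nuclear receptor corepressor complex, in which TBL1XR1 contacts histones and HDAC3 is the deacetylase. SIN3A is the scaffold of the SIN3 complex, whose deacetylases HDAC1 and HDAC2 also serve CoREST and NuRD. RCOR1 is the CoREST protein, which joins a histone demethylase to those deacetylases and is recruited by REST, the zinc finger repressor of neuronal genes. CHD4 is the ATP-dependent remodelling enzyme of NuRD, a complex known for its part in the exit of stem cells from pluripotency.

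The sequences of 10 intervals are shown first, because the comparisons below turn on them. All are the plus strand of GRCm38 (mm10), 5′ to 3′, and coordinates are as the lists give them. The first set is from the NCoR genes. The Ncor1 interval, chr11:62381651-62381851, was listed with identical coordinates for both cell types, and its capitals mark matches to the SOX core ACAAAG on either strand, held by 17.3% of mESC intervals of that length. The Tbl1xr1 mESC interval, chr3:22099489-22099589, carried the gene's highest fold in the mESC list, and its capitals mark a BCL6/STAT match, TTCNNNGAA, held by 3.07% of mESC intervals of that length. The Tbl1xr1 MEF interval chr3:22097651-22097851 had the gene's highest fold in the MEF list, and its capitals mark the TEAD core GGAATG, held by 11.0% of MEF intervals of that length. The other Tbl1xr1 MEF interval, chr3:22200301-22200501, overlaps a coding exon, and its capitals mark the 122 coding bases of exon 11.
Ncor1 intron 16, both lists: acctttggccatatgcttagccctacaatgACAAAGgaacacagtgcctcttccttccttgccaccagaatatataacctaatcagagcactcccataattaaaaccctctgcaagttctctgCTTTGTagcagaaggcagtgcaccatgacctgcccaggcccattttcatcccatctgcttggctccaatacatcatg
Tbl1xr1 intron 1, mESC list: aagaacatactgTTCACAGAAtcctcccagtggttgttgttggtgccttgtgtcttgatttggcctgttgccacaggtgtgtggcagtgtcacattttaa
Tbl1xr1 intron 1, MEF list: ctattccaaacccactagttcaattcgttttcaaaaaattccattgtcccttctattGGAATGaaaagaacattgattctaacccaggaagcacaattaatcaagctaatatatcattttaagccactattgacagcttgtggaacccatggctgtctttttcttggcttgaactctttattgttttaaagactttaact
Tbl1xr1 exon 11, MEF list: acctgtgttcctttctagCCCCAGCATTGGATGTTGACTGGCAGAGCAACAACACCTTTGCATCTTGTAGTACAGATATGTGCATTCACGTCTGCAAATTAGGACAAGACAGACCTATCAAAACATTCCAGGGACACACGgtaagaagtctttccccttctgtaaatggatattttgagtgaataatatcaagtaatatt

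The second set holds intervals with the highest fold of a list at the SIN3 and CoREST genes, among those of at most 300 bp. The Sin3a interval, chr9:57109801-57110101, had the highest fold of the 63 mESC intervals, and its capitals mark a match to the YY1 motif AAGATGGC on the minus strand, held by 3.94% of mESC intervals of that length. The Hdac1 interval, chr4:129546855-129546984, lies upstream of the gene, and its capitals mark an AP-1 match, TGANTCA, held by 6.14% of all mESC intervals. The Hdac2 interval, chr10:36996301-36996601, is from the MEF list, and its capitals mark the right arm of the REST motif, GGACAG, on the minus strand, held by 17.9% of MEF intervals of that length. The Rcor1 interval, chr12:111097844-111097994, is the top one of the MEF list there, and its capitals mark the SOX core, held by 14.6% of MEF intervals of that length. Soft-masked repeat made up 74.3% of the Sin3a interval, 28.7% of the Hdac1, 51.3% of the Hdac2 and 74% of the Rcor1 interval. The letters below do not mark it, so a marked match may lie in repeat sequence.
Sin3a intron 14, mESC list: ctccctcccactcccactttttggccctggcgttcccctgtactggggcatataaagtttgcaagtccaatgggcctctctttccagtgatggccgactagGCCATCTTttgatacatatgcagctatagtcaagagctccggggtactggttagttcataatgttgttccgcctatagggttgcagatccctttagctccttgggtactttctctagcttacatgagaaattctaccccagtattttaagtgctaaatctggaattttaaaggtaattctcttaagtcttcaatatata
Hdac1 upstream, mESC list: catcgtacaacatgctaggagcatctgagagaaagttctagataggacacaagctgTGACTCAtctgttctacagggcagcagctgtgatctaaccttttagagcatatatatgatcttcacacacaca
Hdac2 intron 8, MEF list: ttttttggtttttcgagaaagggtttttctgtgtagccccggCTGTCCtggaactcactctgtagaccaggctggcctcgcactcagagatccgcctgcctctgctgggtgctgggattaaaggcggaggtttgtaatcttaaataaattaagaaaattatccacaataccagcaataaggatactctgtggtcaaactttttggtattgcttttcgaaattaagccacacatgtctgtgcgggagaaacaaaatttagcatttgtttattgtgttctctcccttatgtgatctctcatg
Rcor1 intron 5, MEF list: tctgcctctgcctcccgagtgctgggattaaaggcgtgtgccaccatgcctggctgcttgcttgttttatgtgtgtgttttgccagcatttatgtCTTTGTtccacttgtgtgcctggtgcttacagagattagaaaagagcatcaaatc

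The last set shows the Chd4 intervals nearest the gene start and inside a coding exon. The upstream interval, chr6:125095651-125095801, ends before the annotated start, and its capitals mark 4 copies of the word ATTATGGG. The exonic interval, chr6:125110011-125110111, lies wholly in coding exon 21, so all of its 100 bases are in capitals.
Chd4 upstream, mESC list: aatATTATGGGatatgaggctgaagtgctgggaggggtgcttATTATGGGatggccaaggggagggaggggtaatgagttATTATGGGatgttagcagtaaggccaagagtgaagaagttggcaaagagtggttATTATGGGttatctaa
Chd4 exon 21, mESC list: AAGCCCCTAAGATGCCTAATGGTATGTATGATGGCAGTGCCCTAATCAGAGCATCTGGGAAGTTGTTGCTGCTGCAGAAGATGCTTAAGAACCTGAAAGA

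The 9 genes together had more listed intervals per length than the typical gene in both cell types. Their territories held 87.1 mESC intervals per Mb (95% Poisson interval 66.9 to 111) and 55.3 MEF intervals per Mb (39.5 to 75.3). Over all protein-coding genes the pooled density was 48.3 per Mb in the mESC list and 36.9 per Mb in the MEF list. The median of the 9 genes was 76.6 mESC and 48.8 MEF intervals per Mb, against a median over all genes of 40.6 mESC and 31.3 MEF. Every one of the 9 lay above the all-gene median in the mESC list, whereas Hdac3, Chd4 and Hdac1 lay below it in the MEF list. These are descriptions, since neighbouring genes share intervals and no test was made of the group.

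**Figure D1:**
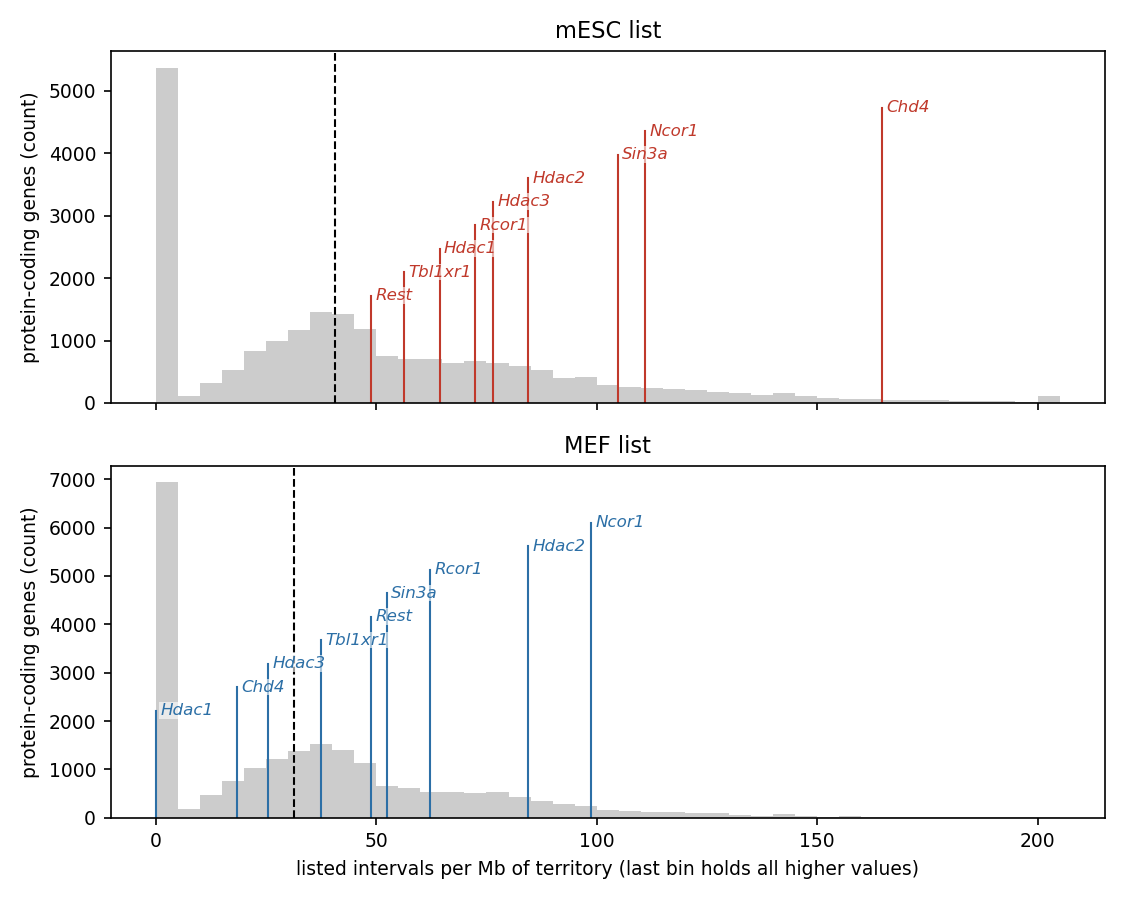
Distribution of intervals per Mb of territory (horizontal axis) over all 21938 protein-coding genes (grey bars, number of genes), mESC list above and MEF list below, with the median gene dashed and each corepressor or deacetylase gene as a coloured line whose height only separates the labels. Chd4 lies at 165 per Mb in the mESC list and at 18.3 per Mb in the MEF list, and Ncor1 is among the denser genes in both.

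In order of mESC density the genes ran Chd4 (165 per Mb), Ncor1 (111), Sin3a (105), Hdac2 (84.5), Hdac3 (76.6), Rcor1 (72.5), Hdac1 (64.4), Tbl1xr1 (56.3) and Rest (48.8). Counting intervals of neighbours in this order overlapped throughout, and even Chd4 (75.4 to 313) and Tbl1xr1 (25.7 to 107) overlapped. In the MEF list the order was Ncor1 (98.7 per Mb), Hdac2 (84.5), Rcor1 (62.1), Sin3a (52.4), Rest (48.8), Tbl1xr1 (37.5), Hdac3 (25.5), Chd4 (18.3) and Hdac1, with no interval. Ncor1 and Hdac2 thus stood high in both lists by territory, while Chd4 was first in the mESC list and last but one in the MEF list. Where the nearest gene start decided, Ncor1 kept 1 interval in each list. Another gene, Pigl, starts 81 bp inside the Ncor1 body, so that rule takes body intervals from Ncor1 by annotation.

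Of the 103 intervals, 61.2% were from the mESC list (95% binomial interval 51.1 to 70.6). The same share was 56.2% over all intervals and 56.7% over those in protein-coding territories. More mESC than MEF intervals were counted at 7 of the 9 genes, none had more MEF intervals, and Hdac2 and Rest had equal numbers. Over the 17989 genes with any interval, 55.6% had more mESC intervals and 24.3% had more MEF intervals. The count of 7 depended on which intervals were kept. It was 4 genes with 3 reversed (Ncor1, Hdac2 and Rcor1) among intervals with a fold of at least 3, a minimum set alike on 2 lists whose scaling is unknown. It was 6 genes with 2 reversed (Ncor1 and Hdac2) among intervals under 50% soft-masked, and 6 with Rest reversed where the nearest gene start decided. On gene bodies without flanks it was 7 with Rest reversed. Among intervals that share no 30-base word with another interval of their list, described further on, it was 4 genes with Ncor1 reversed.

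The mESC share of each gene was set against the genome-wide 56.2% with a two-sided exact binomial test, adjusted by Benjamini-Hochberg over all 3549 protein-coding genes with at least 10 intervals. Of the 9 genes, 5 had enough intervals to be tested. None of the 5 passed an adjusted p of 0.05, as was true of all genes (0 of 3549, or 0%), and none of the 5 passed without adjustment, where 30 genes or 0.845% did. The exact p was 0.0505 for Chd4, 0.569 for Sin3a, 0.732 for Ncor1, 0.802 for Tbl1xr1 and 1 for Rcor1, and the adjusted p was 1 for each. On simulated data with the real totals, the test recovered 18% of genes given an odds ratio of 4 and 40% of genes given 8, so most such differences at a single gene would be missed with these counts.

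**Figure D2:**
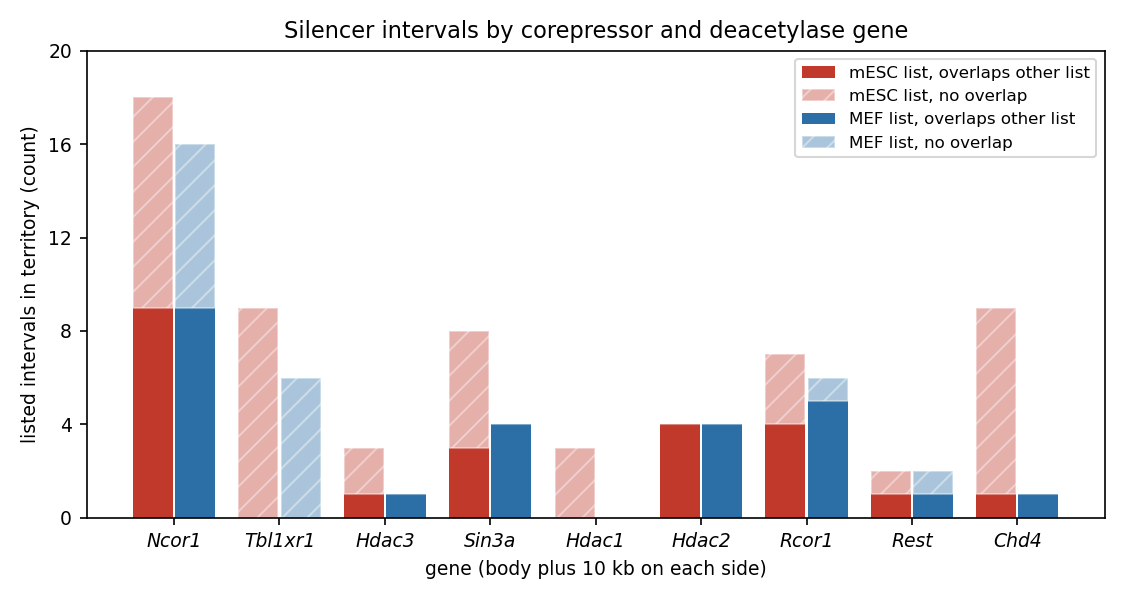
Number of listed intervals (vertical axis) in each gene's territory, mESC list left in red and MEF list right in blue, with solid bars for intervals that overlap the other list and pale hatched bars for those that do not. Tbl1xr1 had 9 mESC and 6 MEF intervals with no overlap, Hdac2 had 4 and 4 that all overlapped, and Chd4 had 9 and 1.

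Ncor1, the scaffold of the NCoR complex, lies on the minus strand of chromosome 11 from 62316426 to 62458541. It had 18 mESC and 16 MEF intervals, 91.3 and 94.4 on the percentile scale of density among all protein-coding genes. In each list 9 of them overlapped the other list, and 16 mESC and 14 MEF intervals had their midpoint in an intron. The interval with the highest fold of each list lay in intron 1, 8.70 kb from the start, with a fold of 4.72 at chr11:62449647-62450033 in the mESC list and 3.78 at chr11:62449701-62450051 in the MEF list. These overlapped, and their folds ranked at the 95.4 and 92.6 percentiles of their own lists.

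The Ncor1 interval with identical coordinates in both lists, printed above, lay in intron 16 and had a fold of 3.89 in the mESC list and 3.33 in the MEF list. A further pair straddled an exon edge at intron 21, at chr11:62367101-62367301 with a fold of 3.21 in the mESC list and chr11:62367131-62367281 with 3.31 in the MEF list. These covered 58 and 28 exonic bases. A MEF interval without mESC partner, chr11:62325417-62325809 with a fold of 2.31, covered exon 42 of the 46 exons, a stretch where the 3′ part of Ncor1 overlaps Ttc19 on the other strand. Of the Ncor1 intervals, 2 mESC and 2 MEF ones lay in Ttc19 and 1 of each in Pigl, whose start is 81 bp from that of Ncor1, so position alone does not assign them to Ncor1. Where the nearest protein-coding start had to be that of the gene, Ncor1 kept 1 of its 18 mESC intervals and 1 of its 16 MEF intervals. That loss follows from annotation. The Pigl start lies inside the Ncor1 body, so every interval in the body is nearer to it or to another start, whatever its distance from Ncor1.

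Tbl1xr1, whose product is the WD-repeat subunit of the NCoR complex, lies on the plus strand of chromosome 3 from 22076652 to 22216594 and is nearly as long as Ncor1. It had 9 mESC intervals and 6 MEF intervals, and none of them overlapped the other list. Among the 2813 genes with at least 5 intervals in each list, 0.782% had no overlap at all, and of the 3 such genes here (Ncor1, Tbl1xr1 and Rcor1) Tbl1xr1 was the only one, a feature picked out after its values were seen. The gap to the nearest interval of the other list was 1.64 to 15.8 kb. The mESC intervals formed a group of 4 within 40 kb of the start and a group of 5 beyond 100 kb, and the 71.6 kb between them held 3 MEF intervals.

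The highest Tbl1xr1 fold was 5.12 in the mESC list, at the 96.5 percentile of that list, and 3.25 in the MEF list, both in intron 1 and printed above. The MEF interval on coding exon 11 had a fold of 2.81. An mESC interval of 648 bp in exon 16, the last exon, at chr3:22211639-22212287, had a fold of 2.42 and lay wholly in the 3′ UTR. The other 7 mESC and 4 MEF intervals were intronic with folds of 2.01 to 3.04 in the mESC list and 2.04 to 2.18 in the MEF list.

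Hdac3, the deacetylase of the NCoR complex, lies on the minus strand of chromosome 18 from 37935844 to 37955016. It had 3 mESC intervals and 1 MEF interval. The MEF interval, chr18:37947801-37948201 in intron 3, had identical coordinates in the mESC list, with a fold of 3.35 in the mESC list and 2.42 in the MEF list. A second mESC interval in intron 3 had a fold of 3.33, and the third lay 6.44 kb upstream, inside Fchsd1, with a fold of 2.06.

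Sin3a, the SIN3 scaffold, lies on the plus strand of chromosome 9 from 57072040 to 57128366. It had 8 mESC and 4 MEF intervals. All 4 MEF intervals overlapped an mESC interval, and 3 of the 8 mESC intervals overlapped a MEF interval. The intron 14 interval printed above had the highest mESC fold of the 9 genes, 9.80, at the 99.5 percentile of the mESC list. The MEF interval over the same bases, chr9:57109781-57110131, had a fold of 2.57, at the 64.5 percentile of its list.

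The highest MEF fold at Sin3a was 3.48, at chr9:57126401-57126451 in intron 20, whose mESC partner, overlapping it by 48 bp, had 2.83. Exons of Sin3a were touched by mESC intervals alone. The interval chr9:57096843-57097093, with a fold of 2.60, held 130 bases of exon 6, chr9:57096693-57096743, with 2.23, held 22 exonic bases, and chr9:57089507-57089957, with 2.44, held 47. Beyond the 3′ end 1 mESC and 2 MEF intervals lay inside Man2c1, and Man2c1os, annotated as an antisense RNA over the 3′ part of Sin3a, holds 3 mESC and 2 MEF intervals.

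Hdac1 and Hdac2, the closely related deacetylases of SIN3, CoREST and NuRD, differed in how their intervals were shared. Hdac1, on the minus strand of chromosome 4 from 129516104 to 129542713, had 3 mESC intervals and no MEF interval, where a count of 0 allows up to 79.1 per Mb. Its top interval, printed above, lay 4.21 kb upstream with a fold of 4.52, and intervals in introns 1 and 3 had 2.41 and 2.47. Hdac2, on the plus strand of chromosome 10 from 36974544 to 37001889, had 4 mESC and 4 MEF intervals, paired throughout: upstream, in intron 1, in intron 8 and downstream. The difference between these genes rests on 3 and 8 intervals and was not tested.

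The mESC folds at Hdac2 were 2.20 upstream, 2.71 in intron 1, 2.38 in intron 8 and 2.71 downstream, and the MEF folds at the same places were 2.48, 2.27, 3.84 and 2.27. Within the mESC list the intron 1 and downstream intervals thus had the highest fold at Hdac2, and within the MEF list the intron 8 interval did. The intron 1 interval of the mESC list was at chr10:36983761-36984092. Over the 3 deacetylase genes the density was 75.1 mESC and 37.6 MEF intervals per Mb, and over the other 6 genes it was 89.8 mESC and 59.3 MEF.

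**Figure D3:**
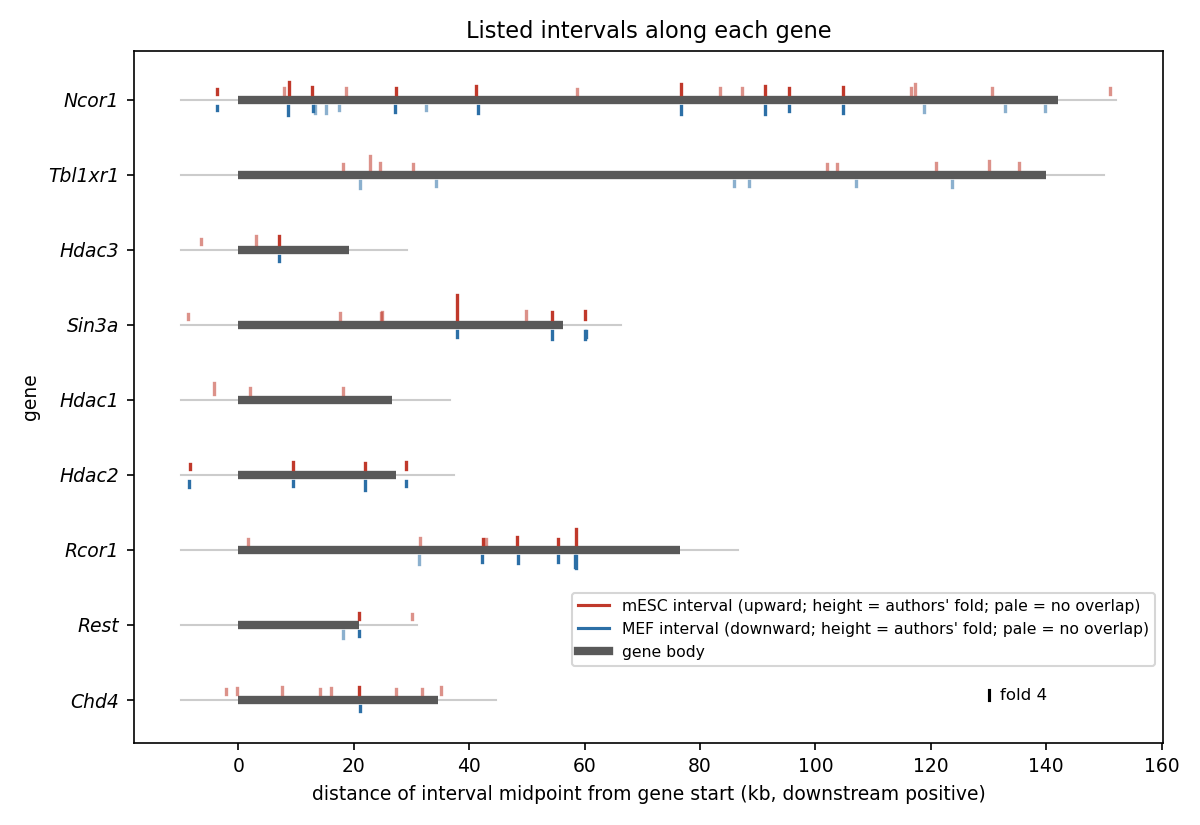
Position of each interval's midpoint along the gene (horizontal axis, kb from the gene start in the direction of transcription), with mESC intervals upward in red, MEF intervals downward in blue, tick height proportional to the authors' fold, and pale ticks for intervals without overlap in the other list. Thick grey bars are gene bodies and thin lines the 10 kb flanks. The fold of 9.80 in Sin3a intron 14 is the tallest mESC tick, and the ticks of Tbl1xr1 have no partner.

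Rcor1, the CoREST protein, lies on the plus strand of chromosome 12 from 111039351 to 111115901. It had 7 mESC and 6 MEF intervals, all inside the gene body and all in introns by their midpoint. Of these 4 mESC and 5 MEF intervals overlapped the other list. In intron 5 the mESC interval chr12:111097657-111098007 had a fold of 6.10, at the 97.9 percentile. It overlapped 2 MEF intervals, chr12:111097644-111097744 with 4.63 and the printed one with 5.20, the highest MEF fold of the 9 genes. A pair in intron 2, chr12:111081609-111081809 with 2.03 in the mESC list and chr12:111081550-111081750 with 2.50 in the MEF list, covered 84 and 27 exonic bases.

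Rest, the DNA-binding repressor that recruits CoREST, lies on the plus strand of chromosome 5 from 77265491 to 77286432 and had the fewest mESC intervals of the 9 genes, 2, beside 2 in the MEF list. Both lists had an interval across the end of exon 4, the last exon, in the 3′ UTR, at chr5:77286317-77286533 with a fold of 2.64 in the mESC list and chr5:77286384-77286467 with 2.23 in the MEF list. The other MEF interval, chr5:77283451-77283701, lay wholly in the 3′ UTR with a fold of 2.97. The other mESC interval, with a fold of 2.17, lay 3′ of the gene inside Noa1. No interval of either list lay in the introns of Rest or within 10 kb upstream of it.

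Chd4, the NuRD remodelling enzyme, lies on the plus strand of chromosome 6 from 125095981 to 125130591. It had 9 mESC intervals and 1 MEF interval, which is an mESC share of 90% (95% binomial interval 55.5 to 99.7). A share of at least 90% was found for 0.254% of genes with 10 or more intervals, and for 1 of the 5 here, a criterion picked after seeing the value. Its mESC density of 165 per Mb ranked at the 98.4 percentile of all protein-coding genes and its MEF density of 18.3 per Mb at the 36.7 percentile. In the exact binomial test the unadjusted p was 0.0505 and the adjusted p was 1.

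The listed folds at Chd4 ran from 2.03 to 2.84 in the mESC list and the MEF interval had 2.23, so all were below a fold of 3. The intervals ran from 2.23 kb upstream to 35.2 kb downstream of the start. The last of them, chr6:125131051-125131251, lay beyond the 3′ end of Chd4 and near the start of Nop2 at 125131909. Where the nearest protein-coding start had to be that of Chd4, 5 of the 9 mESC intervals and 0 MEF intervals were kept. The highest mESC fold, 2.84, was in intron 10 at chr6:125103301-125103801. The single MEF interval, chr6:125116876-125117076 in intron 25, overlapped an mESC interval with a fold of 2.71. The exon 21 interval had a fold of 2.05.

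The upstream Chd4 interval had its midpoint 0.254 kb before the gene start and a fold of 2.63. Over all protein-coding genes 5.92% had an mESC interval within 1 kb of the gene start and 4.49% a MEF interval, and here 1 of the 9 genes had the first and none had the second. The interval held the word ATTATGGG 4 times on the plus strand, while 1.23% of mESC intervals held it once or more on either strand. It was the only mESC interval with 4 copies, and no MEF interval had 4. That word was noticed by eye, and 5 of the 9 mESC intervals of Chd4, not including this one, were at least 50% soft-masked repeat.

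Many of the intervals held repeat sequence, among them some with the highest folds. An interval was counted as repeated where at least 1 of its 30-base words, on either strand, occurred in another interval of the same list, a measure chosen after the sequences were seen. Of the 63 mESC intervals 47.6% were repeated in this sense, against 33.0% of all mESC intervals, and of the 40 MEF intervals 32.5%, against 29.0% of all MEF intervals. These shares were not matched for length, and a longer interval holds more words. The mESC intervals here had a median of 236 bp, against 200 bp over all, so no excess is read from them. The Sin3a intron 14 interval shared such a word with 1585 other mESC intervals and 901 MEF intervals elsewhere in the genome. The median fold of those 1585 was 2.77, and 45 of them had a fold of 9.80 or more.

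The Rcor1 intron 5 interval of the mESC list likewise shared a word with 1739 other mESC intervals, whose median fold was 2.46, and 39 of those had a fold of 6.10 or more. The longest Ncor1 interval, 1261 bp at chr11:62416726-62417987 in intron 5, shared one with 7540 mESC intervals, the most of any here. At Chd4 4 of 9 mESC intervals and the only MEF interval were repeated, which left 5 mESC intervals and no MEF interval. The printed Hdac2 and Rcor1 MEF intervals (folds 3.84 and 5.20) shared a word with 1087 and 681 other MEF intervals. By contrast the identical Ncor1 pair, the identical Hdac3 pair, the top Hdac1 interval and the top Tbl1xr1 interval of each list shared no 30-base word with any other listed interval. The sources used here do not say how reads from repeats were aligned, and the part of repeats in these folds was not tested. Without repeated intervals 33 mESC and 27 MEF intervals were left, an mESC share of 55.0%, against 54.8% of all such intervals.

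Of the 63 mESC intervals 36.5% (95% binomial interval 24.7 to 49.6) overlapped a MEF interval, against 36.6% of all mESC intervals. Of the 40 MEF intervals 62.5% (45.8 to 77.3) overlapped an mESC interval, against 47.3% of all MEF intervals, a value inside that counting interval. Without Tbl1xr1 the MEF share was 73.5% (55.6 to 87.1). That rise follows by construction, since Tbl1xr1 was picked after its lack of overlap was seen, so no departure from the 47.3% is read from it. Where at least 50% of both intervals had to overlap, the MEF share over the 9 genes was 45.0%. The share of all MEF intervals under that stricter rule was not computed, so 45.0% is not set against the 47.3%. The overlaps of at least 1 bp made 25 pairs in 7 genes, sharing 48 to 700 bp. Ncor1 held 9 of these pairs, while Tbl1xr1 and Hdac1 held none.

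In the mESC list the median fold of the 9 genes was close to that of all intervals. In the MEF list it was higher, with the all-interval median inside its counting interval. The median was 2.44 (95% order-statistic interval 2.28 to 2.63) in the mESC list, against 2.42 over all mESC intervals, and 2.59 (2.31 to 3.03) in the MEF list, against 2.36 over all MEF intervals. A fold above 4 was listed for 6 mESC intervals, or 9.52%, against 7.99% of all, and for 2 MEF intervals, or 5.0%, against 5.92% of all. A fold of at least 3 was listed for 14 of 63 mESC and 15 of 40 MEF intervals. For scale, a fold of 3.04 ranked at the 78.6 percentile of the mESC list. In the MEF list a fold of 3.03 ranked at the 82.0 percentile, so the MEF intervals here reached 3 more often than their list. That difference was not tested. By gene the median mESC fold ran from 2.23 at Rcor1 to 3.33 at Hdac3, and the median MEF fold from 2.15 at Tbl1xr1 to 3.19 at Rcor1.

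By place, most intervals were intronic: midpoints fell in an intron of any gene for 82.5% of mESC and 80.0% of MEF intervals, against 45.5% of all mESC and 45.2% of all MEF intervals, which include those far from genes. Coding exons held 2 mESC intervals (3.17%, against 0.530% of all) and 2 MEF intervals (5.0%, against 0.535% of all), in Sin3a and Chd4 for mESCs and in Ncor1 and Tbl1xr1 for MEFs. Of all intervals, 48.7% in the mESC list and 49.1% in the MEF list were intergenic. The rule took intervals at genes, so higher exon shares follow in part by construction, and 2 intervals in each list are too few to read more into them. Counting any exonic base, 8 mESC and 6 MEF intervals touched an exon of their gene. Another protein-coding gene was touched by 11 of the 103, namely Ttc19, Pigl, Fchsd1, Man2c1 or Noa1. The mESC intervals had a median length of 236 bp, against 200 bp over all, and the MEF intervals had 200 bp, as did all. The mean GC content was 41.8% in mESC intervals, against 40.3% over all, and 38.8% in MEF intervals, against 40.1% over all.

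Motif matches were searched on both strands and are shares of intervals with at least 1 match, beside the mean share among listed intervals of like length (within 10%). AP-1 was found in 6.35% of mESC intervals (6.91% at like length) and 7.5% of MEF intervals (7.32%). The right arm of the REST motif was in 14 mESC intervals, or 22.2% (14.9%), and 4 MEF intervals, or 10.0% (14.2%). Every match lay in soft-masked sequence in 8 of those 14 mESC intervals, or 57.1%, against 45.4% of all mESC intervals with the motif, and in 3 of the 4 MEF intervals, against 45.1% of all MEF intervals with it. The left arm, TTCAGCACC, was in none of the mESC (0.421%) or MEF intervals (0.369%). SOX was in 20.6% of mESC (20.7%) and 30.0% of MEF intervals (20.5%), and TEAD in 6.35% of mESC (13.8%) and 12.5% of MEF intervals (12.7%). BCL6/STAT was in 3.17% of mESC (7.12%) and 7.5% of MEF intervals (7.36%), and YY1 in 4.76% of mESC (3.47%) and 2.5% of MEF intervals (2.75%).

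A CpG was present in 77.8% of mESC intervals (68.8% at like length) and in 70.0% of MEF intervals (66.4%). The KLF/SP core GGGCGG and the E-box CACGTG were each in 1 mESC interval, the same interval in Rcor1 intron 3, and in no MEF interval. At like length KLF/SP was in 2.68% of mESC and 2.16% of MEF intervals, and the E-box in 2.22% and 2.45%. POU (ATGCAAAT), ETS (CCGGAAGT) and NRF1 motifs were not found in any of the 103. Their like-length shares were also low: 2.13% of mESC and 1.94% of MEF intervals for POU, 0.0954% and 0.0947% for ETS, and 0.00403% and 0.0105% for NRF1. With so few intervals, these absences say little. With 63 and 40 intervals each match moves these shares by a percent or more, motifs overlap in single intervals, and a match is a string of letters, not a bound site.

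The 39 other genes listed for these complexes and related deacetylases and corepressors had 202 mESC and 161 MEF intervals. Their pooled density was 50.2 mESC and 40.02 MEF intervals per Mb, close to that of all genes, and the mESC share was 55.6%. More mESC intervals were counted at 17 of them, more MEF intervals at 11, equal numbers at 6, and none in either list at 5 (Brms1, Hmg20b, Hdac6, Hdac7 and Hdac11). Of the 7 with at least 10 intervals none passed the exact binomial test after adjustment or before it. Ncor1, Tbl1xr1 and Hdac3 together had 83.0 mESC and 63.7 MEF intervals per Mb. The other SIN3 genes had 67.1 mESC and 53.6 MEF intervals per Mb, against 88.1 and 47.0 over Sin3a, Hdac1 and Hdac2.

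Gatad2b, which encodes a p66 subunit of NuRD, was the densest of these genes in both lists, with 19 mESC intervals (211 per Mb) and 13 MEF intervals (144 per Mb), so that Chd4 was not the densest NuRD gene in either list. Arid4b, whose product binds SIN3, had 18 mESC and 9 MEF intervals, and its relative Arid4a had 8 and 9. Rcor2, a paralogue of Rcor1, had 3 mESC and 1 MEF intervals, or 108 and 35.8 per Mb. In the MEF list Brms1l (112 per Mb, with 5 mESC and 6 MEF intervals) and Mta2 (98.6 per Mb, with 1 and 3) followed Gatad2b. Phf21a had 23 mESC and 21 MEF intervals, Mta3 had 11 and 7, and the long Hdac9 had 54 and 41, at 60.7 mESC and 46.1 MEF per Mb.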

How the data were processed

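Reporter RNA and input plasmid libraries were sequenced by the submitters, who deposited 1 interval list for mESCs and 1 for MEFs. Per the file headers, each list gives coordinates and a fold for every interval, and the authors deposited that fold as a linear ratio. Bowtie2 and SAMtools are named, without versions, in the submitters' processing notes, with the build hg38, while the design text names mm10. No interval ended past an mm10 chromosome (0), so mm10 was used. The sources used here do not state the caller, any depth scaling or the handling of replicates and repeats, and the depth behind an interval is unknown. No column of other samples was present.

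The genes and gene lists were chosen with earlier results of these data known. Territories came from GENCODE M21 and sequence from GRCm38. Exons were numbered in the principal transcript with the longest coding sequence. Intervals were read with starts counted from 0, and 40.8% of mESC and 40.7% of MEF starts lay 1 base past a multiple of 50, so starts may be off by 1 bp. Named intervals were those with the highest fold for each gene and list, those touching an exon or within 1 kb of the start, and those with identical coordinates, and others were named after their values were seen. Other pathway genes were named where among the 3 densest of a list or with at least 10 intervals. Per-gene shares were tested with a two-sided exact binomial test at 0.05 in Python 3.11.15 with scipy 1.17.1, checked on simulated data. Density had exact Poisson intervals and shares exact binomial (Clopper-Pearson) intervals at 95%. Alternatives changed the territory, the counting rule, the fold minimum, the repeat content and the overlap rule.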

Additional observations from a re-analysis of the deposited data

How the results depend on the processing

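The mESC share of 61.2% became 48.3% with a fold of at least 3 (60.8% over all such intervals) and 72.7% without intervals that overlap the other list (60.7% over all such intervals), and it stayed inside its counting interval under the other alternatives. The density of 87.1 mESC and 55.3 MEF intervals per Mb became 48.4 and 27.6 where the nearest protein-coding start had to be that of the gene, 19.3 and 20.7 with a fold of at least 3, 47.0 and 35.9 for intervals under 50% soft-masked, and 45.6 and 37.3 for intervals that share no 30-base word with another interval of their list, an alternative chosen after seeing the data. Fewer intervals are kept under each of these by construction, and none of these densities has a matching all-gene value here. Under the nearest-start rule Ncor1 went from 18 to 1 mESC and from 16 to 1 MEF intervals, because Pigl starts inside it. The median fold became 3.62 in the mESC list and 3.33 in the MEF list with the fold minimum. The share of MEF intervals overlapping an mESC interval became 45.0% where at least 50% of both had to overlap, a rule with no all-interval value here. Leaving out each gene in turn gave an mESC share of 58.1 to 65.2%, densities of 80.1 to 95.8 mESC and 42.7 to 60.3 MEF per Mb, median folds of 2.41 to 2.47 and 2.49 to 2.65, and overlapping shares of 31.1 to 42.6% of mESC and 58.3 to 73.5% of MEF intervals. No gene passed the adjusted exact binomial test under the 9 alternatives it was run with, and without adjustment only Chd4 of the 9 genes did, with 25 kb flanks, where 66 of 6183 genes did. Chd4 had 4 mESC and 0 MEF intervals under 50% soft-masked, 5 and 0 without repeated words, and 0 and 0 with a fold of at least 3. It had 5 and 0 where the nearest protein-coding start had to be its own. No paired analysis was possible because each cell type has 1 list with no value for each library. An interval's own error cannot be given, since depth is unknown.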

Other observations

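The authors' folds took few values. The 115165 mESC intervals had 3594 distinct folds and the 89596 MEF intervals had 3077. The commonest fold was 2.71 in the mESC list, carried by 4086 intervals (3.55%), and 2.72 in the MEF list, carried by 3051 (3.41%). Of all folds, 75.9% in the mESC list and 75.01% in the MEF list equalled the commonest one times a ratio of whole numbers with a denominator of at most 50, with that ratio met to within 1e-06. Among the corepressor and deacetylase genes this held for 49 of 63 mESC and 28 of 40 MEF intervals. At the commonest fold lay 3 mESC intervals (Hdac2 in intron 1 and downstream, and Chd4 in intron 25) and 1 MEF interval (Sin3a, 3′ of the gene). The number of reads behind any fold was not derived from this.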
